A study of Mus musculus with 12 samples.

Results

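Marker transcripts of 3 tissues that are not carcinoma were followed in subcutaneous tumors of the CT26 line. They mark keratinocytes, skeletal muscle and red blood cells, but cultured CT26 cells express some of them too, such as Eno3 and Lgals7. The list held 37 genes, 13 of keratinocytes, 16 of skeletal muscle and 8 of the erythroid lineage, among 55335 gene identifiers in the count tables. Genes were chosen by tissue, as markers of skin, muscle and blood that a tumor sample may hold, with earlier results of these data known. All 37 had a count in at least 1 tumor. CT26 is a murine colorectal cancer line, with the genotype given as WT. RNA was sequenced from tumors under midostaurin, a multikinase inhibitor (40 mg/kg from day 7 after inoculation, for 2 weeks), tumors under vehicle, cultured cells under midostaurin (1 µM for 48 h) and cultured cells under DMSO, with 3 libraries in each of these 4 groups. The strain and age of the host mice are not given in the sources used here. Treated tumors are called midostaurin tumors 2, 3 and 4 after the columns of the count table, whose numbers differ from the 1, 2 and 3 of the labels.

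The epidermis is built of keratinocytes. Basal cells hold keratins 5 and 14, and cells that move outward switch to keratins 1 and 10 and then form the cornified envelope. Skeletal muscle fibers contract through sarcomeres of actin, myosin, troponin and titin, and fast fibers differ in which myosin heavy chain they use. Maturing red cells fill with hemoglobin, a tetramer of alpha and beta globin chains around heme. Mouse reticulocytes, the youngest circulating red cells, still carry globin mRNA. The skin of the mouse has a thin sheet of skeletal muscle, the panniculus carnosus, beneath its dermis.

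Libraries held 33399701 to 48109497 counts in tumors and 34787389 to 38144039 in cells, and 21382 to 22145 genes were detected per tumor library against 19637 to 20088 per cell library. Levels are CPM, counts per library total with TMM scaling. The labels do not say whether samples of a group came from separate animals or cultures, so the p-values refer to sample-to-sample spread alone, and that spread may be technical. Colon epithelial markers went both ways. In edgeR, of 8 tested, 3 were higher and 2 lower in tumors than in cells, beside 31.5% higher and 26.6% lower over all genes. Krt20 had 6995 to 23701 counts in tumors and 375 to 1946 in cells, while Krt18 had 108 to 616 in tumors and 821 to 1147 in cells. The epithelial adhesion gene Epcam, chosen after its values were seen, had 0 counts in all 6 cell libraries, so this line lacks that marker of colon epithelium. In bulk RNA, more cells of a type and more RNA per cell cannot be told apart, and this holds for every level below.

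**Figure D1:**
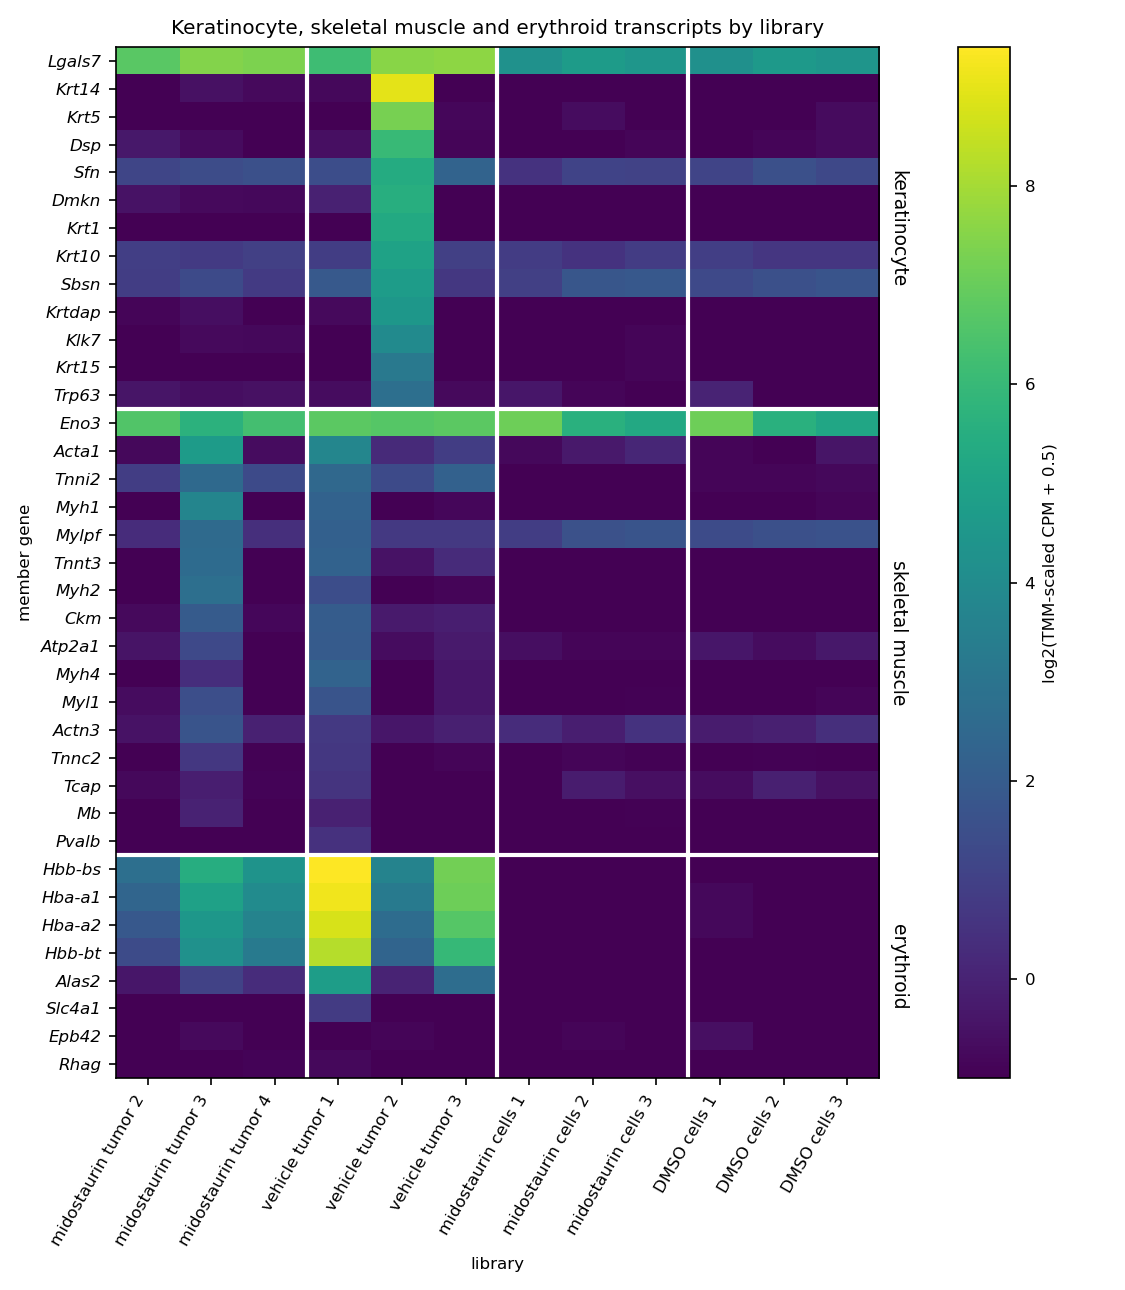
Level of each of the 37 genes (rows, grouped by tissue and ordered by mean tumor level) in each of the 12 libraries (columns), as log2(TMM-scaled CPM + 0.5). The keratinocyte rows brighten in vehicle tumor 2, most muscle rows in midostaurin tumor 3 and vehicle tumor 1, and the globin rows in vehicle tumor 1 and vehicle tumor 3, while cell libraries are bright for Lgals7 and Eno3.

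The tumors that carried a tissue differed between the tissues, and vehicle tumor 1 carried both muscle and red cell transcripts. Summed over its members, the keratinocyte list reached 111.0, 185 and 167 CPM in midostaurin tumors 2, 3 and 4, against 80.3, 1143 and 203 CPM in vehicle tumors 1, 2 and 3. Vehicle tumor 2 stood 5.64 times above the next tumor. In every other tumor this keratinocyte sum is mostly Lgals7, which the cultured cells hold too. Over the 9 keratinocyte members below 1 CPM in cells, vehicle tumor 2 reached 856 CPM. On these members the midostaurin tumors had 0.814, 0.807 and 0.468 CPM, and vehicle tumors 1 and 3 had 0.938 and 0.208 CPM. The erythroid list reached 16.8, 118 and 58.0 CPM in the midostaurin tumors, against 2010.0, 32.4 and 454 CPM in the vehicle tumors, so vehicle tumor 1 led and vehicle tumor 3 came second. The muscle list gave 97.3, 125 and 81.0 CPM in the midostaurin tumors and 160.0, 106 and 120 CPM in the vehicle tumors. This muscle sum is mostly Eno3, the muscle enolase, in every tumor but midostaurin tumor 3, where Eno3 gave 50.3 of the 125 CPM. The cultured cells hold Eno3 too. Over the 14 muscle members below 1 CPM in cells the sums were 2.16, 69.4 and 2.78 CPM in the midostaurin tumors, against 47.9, 3.70 and 8.21 CPM in the vehicle tumors, so midostaurin tumor 3 and vehicle tumor 1 were the carriers. The median range of a gene over the 6 tumors, in log2 units, was 4.97 for keratinocyte, 2.48 for muscle and 5.87 for erythroid members. It was 0.55 over all 16094 genes tested between the tumor groups. Only 19 of the 37 members are among those genes, since the others had too few counts to be tested, so the sets are unlike.

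**Figure D2:**
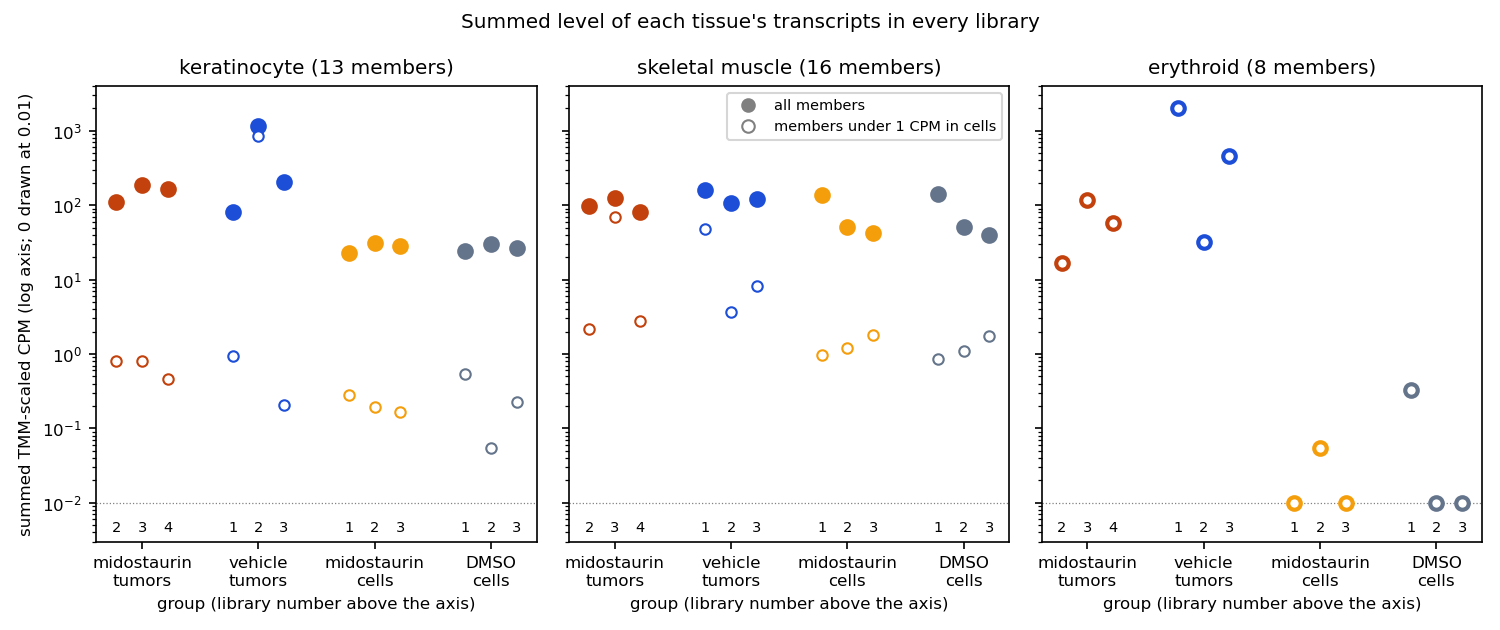
Summed TMM-scaled CPM (log axis) of each tissue's members in every library, by group, with library numbers above the axis. Filled circles sum all members and open circles only the members under 1 CPM in cells, and a sum of 0 is drawn at 0.01. The open circles set vehicle tumor 2 apart for keratinocytes (856 CPM), midostaurin tumor 3 and vehicle tumor 1 for muscle (69.4 and 47.9 CPM), and vehicle tumors 1 and 3 for the erythroid list (2010.0 and 454 CPM).

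Keratinocyte transcripts marked vehicle tumor 2. Of the 13 members, 12 had their highest level there, and 10 were at least 10-fold above every other tumor. Over all 27360 genes with a count in a tumor, 0.68% were 10-fold above the other tumors in vehicle tumor 2. The list made up 0.111% of the counts of that library (95% exact binomial interval 0.1096 to 0.1117%, counting error only) and 0.00813 to 0.0201% of the counts of the other 5 tumors. The exception was Lgals7, described below, which made up most of the list's counts in those other 5 tumors.

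Krt14 was the most abundant member in vehicle tumor 2, ahead of Lgals7 and Krt5. Krt14, the acidic keratin of basal keratinocytes, had 0, 6 and 5 counts in the midostaurin tumors, against 3, 18626 and 0 in the vehicle tumors, and 0 in all 6 cell libraries. Its partner Krt5 had 0 counts in all 3 midostaurin tumors, against 0, 5666 and 3 in the vehicle tumors. Krt14 in vehicle tumor 2 was thus 2698 times the next highest tumor, and 5 of 6 tumors were at or near 0 for both genes. Krt15, another basal keratin, had 323 counts in vehicle tumor 2 and 0 in the other 5 tumors. Trp63, the transcription factor of stratified epithelia, had 10, 5 and 9 counts in the midostaurin tumors, against 5, 236 and 4 in the vehicle tumors. Per kilobase of exon, in vehicle tumor 2, the level was 286 CPM for Krt14, 69.6 CPM for Krt5 and 4.93 CPM for Krt15.

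The keratins of the layers above were also present in vehicle tumor 2. Krt1, a keratin of differentiating keratinocytes, had 1468 counts there and 0 in every other library of tumors and cells. Krt10, which pairs with it, had 56, 38 and 70 counts in the midostaurin tumors, against 53, 1155 and 63 in the vehicle tumors, with 34 to 55 in cells. Vehicle tumor 2 was 21.0 times the next tumor for Krt10, and the other 5 tumors lay between 1.18 and 1.49 CPM, beside a mean of 1.18 ± 0.18 CPM in cells (SD, n = 6). Dsp, the desmosomal plaque protein desmoplakin, had 12, 4 and 0 counts in the midostaurin tumors, against 7, 2355 and 2 in the vehicle tumors.

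Genes of the outermost living layers followed the same library. Krtdap, a secreted protein of differentiating keratinocytes, had 2, 5 and 0 counts in the midostaurin tumors, against 4, 823 and 0 in the vehicle tumors. Dmkn (dermokine) had 8, 3 and 4 counts in the midostaurin tumors, against 18, 1662 and 0 in the vehicle tumors. Klk7, a protease that helps shed the cornified layer, had 0, 3 and 4 counts in the midostaurin tumors, against 0, 564 and 0 in the vehicle tumors. Each of these 3 genes was at 18 counts or fewer outside vehicle tumor 2. Sbsn (suprabasin) had 53, 66 and 57 counts in the midostaurin tumors, against 127, 977 and 47 in the vehicle tumors, and cells held 57 to 114. Sfn, the 14-3-3 protein stratifin, had 70, 69 and 114 counts in the midostaurin tumors, against 89, 1534 and 194 in the vehicle tumors. In vehicle tumor 2, Sbsn and Sfn stood 8.19 and 9.23 times above the next tumor, short of the 10-fold mark.

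Lgals7, a galectin of stratified epithelia, did not follow vehicle tumor 2. It had 4153, 5752 and 7606 counts in the midostaurin tumors, against 2861, 6977 and 8453 in the vehicle tumors, and 722 to 926 in cells. All 6 tumors were above all 6 cell libraries, and the 2 tumor groups overlapped. Its mean level was 150.4 ± 49.9 CPM in tumors and 21.5 ± 2.83 CPM in cells (SD, n = 6 each), a log2 difference of 2.80 ± 0.25 (SE, edgeR adjusted p = 6.52e-06). Between midostaurin and vehicle tumors the log2 fold change of Lgals7 was -0.03 ± 0.38 (edgeR adjusted p = 0.974).

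Further epidermal genes, from a list drawn up as a complement to the members, gave the same library. That list was drawn up with earlier results of these data known, so it describes and does not support. Of 29 with a count in a tumor, 25 were highest in vehicle tumor 2 and 18 were at least 10-fold above every other tumor. The 3 most abundant of these, the integrins Itga6 and Itgb4 and corneodesmosin (Cdsn), are expressed by CT26 cells too. Itgb4 had 9145, 7160 and 8018 counts in the midostaurin tumors, against 4710, 4030 and 9647 in the vehicle tumors, and 509 to 944 in cells. Chosen after their values were seen, Lor (loricrin, of the cornified envelope), Dsg3 (a basal desmosomal cadherin) and Lypd3 had 744, 564 and 571 counts in vehicle tumor 2 and 0 in the other 5 tumors. Keratins induced in wounded or hyperproliferative epidermis were among the most abundant. Krt6b had 11465 counts in vehicle tumor 2 and 0 in all others. Krt6a had 10557 there, and 2, 0 and 4 in the midostaurin tumors. Krt16 had 5625 there, and 2, 0 and 2 in the midostaurin tumors. The list of wound keratins and cornified envelope summed to 0.102, 0.248 and 0.128 CPM in the midostaurin tumors, against 0.203, 881 and 0.162 CPM in the vehicle tumors. Per kilobase of exon, Krt6b reached 138 CPM, Krt6a 118 CPM and Krt16 97.0 CPM in vehicle tumor 2, all above Krt5.

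Hair keratins were at or near 0. Of 14 hair follicle genes, 8 had no count in any tumor, among them Krt25, Krt27, Krt31 and Krt35. The list summed to 0.956 to 1.15 CPM in midostaurin tumors, against 0.763 to 2.10 CPM in vehicle tumors, and S100a3, its most abundant gene, had 25 to 43 counts in tumors and 26 to 75 in cells. Tchh (trichohyalin of the inner root sheath) had 24 counts in vehicle tumor 2, and 4, 6 and 9 in the midostaurin tumors.

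Skeletal muscle transcripts were carried by midostaurin tumor 3 and vehicle tumor 1. Of the 16 members, 9 were highest in midostaurin tumor 3, 6 in vehicle tumor 1 and 1, Eno3, in vehicle tumor 3. No member was 10-fold above every other tumor in a single tumor, beside 0.15% of genes in midostaurin tumor 3 and 0.0219% in vehicle tumor 1. Midostaurin tumors 2 and 4 and vehicle tumor 3 had no member of any tissue that far above the rest, beside 0.0146, 0.0 and 0.011% of genes.

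The contractile filaments showed the pair of tumors. Acta1, the actin of skeletal muscle thin filaments, had 3, 827 and 6 counts in the midostaurin tumors, against 513, 25 and 58 in the vehicle tumors. Myh1, the myosin heavy chain of IIx fibers, had 0, 414 and 0 counts in the midostaurin tumors, against 172, 0 and 3 in the vehicle tumors. Myh2, that of IIa fibers, had 0, 211 and 0 in the midostaurin tumors, against 88, 0 and 2 in the vehicle tumors. Vehicle tumor 3 thus came next, far behind, for these genes. Myh4, that of IIb fibers, had 0, 25 and 0 counts in the midostaurin tumors, against 174, 0 and 12 in the vehicle tumors, so that vehicle tumor 1 led. Mylpf and Myl1 are myosin light chains. Mylpf had 30, 181 and 38 counts in the midostaurin tumors, against 162, 43 and 50 in the vehicle tumors, with 53 to 101 in cells, and Myl1 had 5, 74 and 0 in the midostaurin tumors, against 107, 0 and 12 in the vehicle tumors.

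The troponins of fast fibers, which make contraction depend on calcium, held 1 gene present in every tumor. Tnnt3 had 0, 184 and 0 counts in the midostaurin tumors, against 169, 8 and 31 in the vehicle tumors. Tnnc2 had 0, 36 and 1 in the midostaurin tumors, against 43, 0 and 2 in the vehicle tumors. Tnni2 had 53, 172 and 97 counts in the midostaurin tumors, against 207, 76 and 183 in the vehicle tumors, and 0 to 3 in cells. Every tumor was above every cell library for Tnni2, the 2 tumor groups overlapped, and the lowest tumor still had 1.348 CPM. Actn3, the actinin of fast Z disks, had 8, 88 and 22 counts in the midostaurin tumors, against 46, 10 and 19 in the vehicle tumors. Tcap, the telethonin of the Z disk, had 3, 13 and 2 in the midostaurin tumors, against 38, 0 and 0 in the vehicle tumors. Both were also present in cells at 0.62 and 0.21 CPM on average.

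Energy and calcium handling genes gave the same pair. Ckm, muscle creatine kinase, had 4, 112 and 3 counts in the midostaurin tumors, against 143, 13 and 18 in the vehicle tumors, and 0 in every cell library. Atp2a1, the calcium pump of the fast sarcoplasmic reticulum, had 9, 62 and 0 in the midostaurin tumors, against 136, 5 and 15 in the vehicle tumors. Mb (myoglobin) had 0, 16 and 0 in the midostaurin tumors, against 18, 0 and 0 in the vehicle tumors. Pvalb, the calcium buffer parvalbumin of fast fibers, had 35 counts in vehicle tumor 1 and 0 in all other libraries. Pvalb was thus the muscle member found in a single tumor.

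Eno3 was lower in every midostaurin tumor than in any vehicle tumor. It had 3710, 1620 and 3642 counts in the midostaurin tumors, against 4260, 3746 and 4775 in the vehicle tumors, which were 94.4, 50.3 and 77.4 CPM against 108, 101 and 110.4 CPM. The log2 fold change was -0.52 ± 0.22 and did not pass the test (SE, edgeR adjusted p = 0.247). Groups that do not overlap, in either direction, were found for 27.2% of the genes tested, and Eno3 was the only 1 of the 37 members. Its lowest tumor, midostaurin tumor 3, was a carrier of the other muscle transcripts. In cells Eno3 had 136, 48.0 and 37.8 CPM under midostaurin, against 139, 47.7 and 35.0 CPM under DMSO, so libraries numbered 1 stood apart in both groups.

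The fast myosin mix differed between the 2 carriers. In midostaurin tumor 3, Myh4 made up 3.85% of the 650 counts of Myh4, Myh1 and Myh2 (95% exact binomial interval 2.504 to 5.626%), against 40.1% of 434 counts in vehicle tumor 1 (35.5 to 44.9%). Myh1 made up 63.7% in midostaurin tumor 3 (59.9 to 67.4%), against 39.6% in vehicle tumor 1 (35.0 to 44.4%). Myh2 made up 32.5% (28.9 to 36.2%) in midostaurin tumor 3 against 20.3% (16.6 to 24.4%) in vehicle tumor 1. The intervals of the 2 libraries do not overlap for any of the 3 genes. Corrected for exon length, the Myh4 share was 4.202% in midostaurin tumor 3, against 42.3% in vehicle tumor 1. These intervals cover counting error and compare 2 libraries, 1 from each group, so a difference between treatments cannot be told from one between tumors. The 3 genes lie side by side on chromosome 11 (GENCODE vM21, GRCm38), with Myh4 at chr11:67238029-67260446, Myh1 at chr11:67200052-67224575 and Myh2 at chr11:67171027-67197517, and share 18.9, 25.4 and 22.9% of their 50-base words with other genes, so counts could be split between them.

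The whole muscle profile was uneven between the same tumors. As a ratio of midostaurin tumor 3 over vehicle tumor 1, Myh1 was at 2.95 (95% counting interval 2.46 to 3.54), Acta1 at 1.97 (1.77 to 2.21), Actn3 at 2.34 (1.62 to 3.42), Tnni2 at 1.02 (0.826 to 1.25), Ckm at 0.959 (0.742 to 1.24) and Atp2a1 at 0.558 (0.407 to 0.759). Of other genes of the sarcomere, Des (desmin) was at 2.81 (2.45 to 3.22), Ttn (titin) at 3.63 (2.79 to 4.76), Xirp2 at 6.07 (4.37 to 8.59) and Myom2 at 10.6 (4.56 to 30.2). The intervals of Ldb3 at 0.965 (0.554 to 1.66), Myom1 at 0.935 (0.556 to 1.56) and Myoz1 at 0.561 (0.248 to 1.19) include 1. The level in cells is not subtracted from these ratios. Myom1 averaged 1.24 CPM in cells, above its 0.900 CPM in midostaurin tumor 3 and 0.963 CPM in vehicle tumor 1. Myom2 had 6 counts in vehicle tumor 1 (0.152 CPM), below its mean of 0.497 CPM in cells. No further sarcomere gene had an interval wholly below 1. That of the member Tcap, at 0.419 (0.205 to 0.804), lay below it. Apart from Des and Tcap, these other genes were chosen after their values were seen. Des, the most abundant of 25 further sarcomere genes, had 54, 702 and 79 counts in the midostaurin tumors, against 306, 84 and 143 in the vehicle tumors. Of the 25, 15 were highest in midostaurin tumor 3 and 8 in vehicle tumor 1.

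**Figure D3:**
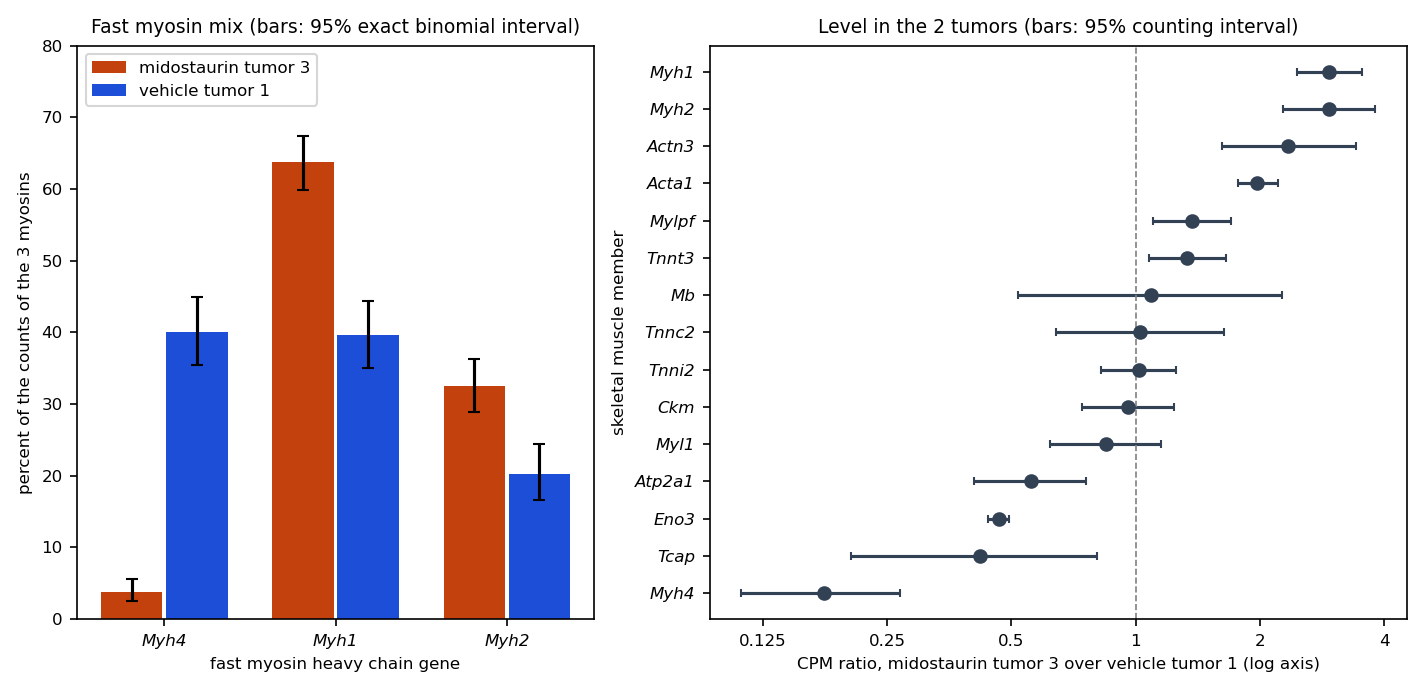
Left, percent of the summed Myh4, Myh1 and Myh2 counts held by each gene in midostaurin tumor 3 and vehicle tumor 1, with 95% exact binomial intervals. Right, ratio of CPM in midostaurin tumor 3 over vehicle tumor 1 (log axis) for 15 muscle members, with 95% counting intervals, leaving out Pvalb, which had 0 counts in midostaurin tumor 3. Myh4 is at 0.176 and Myh1 at 2.95, on either side of the dashed line at 1.

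Slow and developing muscle genes were scarce. The slow fiber list summed to 2.04 to 4.19 CPM in midostaurin tumors, against 2.59 to 3.49 CPM in vehicle tumors, and 3.73 to 5.36 CPM in cells. Tnnc1, Myoz2 and Tnni1, its most abundant genes, had 28 to 56, 21 to 38 and 2 to 39 counts in tumors. Of 10 genes of muscle progenitors and regenerating fibers, Pax7, Myod1 and Myf5 had no count in any tumor. Chrna1, the acetylcholine receptor subunit, had 290, 247 and 353 counts in the midostaurin tumors, against 85, 155 and 214 in the vehicle tumors. It was the only gene of that list to pass the low-count filter, and its log2 fold change between the tumor groups was 1.00 (edgeR adjusted p = 0.154). Chosen after their values were seen, Myog, which drives fiber formation, and Chrng, the fetal receptor subunit, had 12 and 10 counts in midostaurin tumor 3 and 0 in the other 5 tumors.

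Erythroid transcripts were highest in vehicle tumor 1. Of the 8 members, 7 were highest there and 1, Epb42, in midostaurin tumor 3 with 3 counts. The list made up 0.204% of the counts of vehicle tumor 1 (95% exact binomial interval 0.202 to 0.205%), 0.0449% in vehicle tumor 3 and 0.00314% in vehicle tumor 2, against 0.00163, 0.0114 and 0.00568% in midostaurin tumors 2, 3 and 4. The vehicle group therefore held the highest 2 tumors and also vehicle tumor 2, which was below 2 of the 3 midostaurin tumors.

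All 4 adult globin genes gave the same order of tumors. Hbb-bs, a beta globin, had 255, 1431 and 943 counts in the midostaurin tumors, against 26667, 454 and 6334 in the vehicle tumors. Hba-a1, an alpha globin, had 187, 988 and 747 in the midostaurin tumors, against 22684, 333 and 5963 in the vehicle tumors. From low to high the tumors ran midostaurin 2, vehicle 2, midostaurin 4, midostaurin 3, vehicle 3, vehicle 1 for both genes. Hba-a2 had 124, 721 and 576 counts in the midostaurin tumors, against 16990, 221 and 4393 in the vehicle tumors. Hbb-bt had 83, 602 and 429 in the midostaurin tumors, against 11824, 172 and 2668 in the vehicle tumors. Cells held 0 counts of Hbb-bs and Hbb-bt in all 6 libraries, and 3 counts each of Hba-a1 and Hba-a2, all in DMSO cells 1.

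The other members had far fewer counts than the globins. Alas2, the erythroid enzyme of the first step of heme synthesis, had 11, 51 and 35 counts in the midostaurin tumors, against 1073, 19 and 261 in the vehicle tumors. Slc4a1, the band 3 anion exchanger of the red cell membrane, had 50 counts in vehicle tumor 1 and 0 in every other library. Slc4a1 was the only erythroid member 10-fold above every other tumor. Rhag, of the Rh complex, had 0, 0 and 2 counts in the midostaurin tumors, against 3, 0 and 0 in the vehicle tumors. Epb42, a membrane skeleton protein, had 0, 3 and 0 in the midostaurin tumors, against 0, 2 and 0 in the vehicle tumors, and up to 7 in a cell library. Neither Rhag nor Epb42 could be told from background at this depth.

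Summed globin counts ran from 649 in midostaurin tumor 2 to 78165 in vehicle tumor 1. Alas2 amounted to 1.70, 1.36 and 1.30% of the globin counts in the midostaurin tumors, against 1.373, 1.610 and 1.348% in the vehicle tumors, with 95% exact binomial intervals that all overlap. Hbb-bs held 75.4, 70.4 and 68.7% of the beta globin counts in the midostaurin tumors, against 69.3, 72.5 and 70.4% in the vehicle tumors. The interval of midostaurin tumor 2 (70.5 to 79.9%) lay above that of vehicle tumor 1 (68.8 to 69.7%). Hba-a1 held 60.1, 57.8 and 56.5% of the alpha globin counts in the midostaurin tumors, against 57.2, 60.1 and 57.6% in the vehicle tumors. The share of alpha in all 4 globins varied from 45.7% in midostaurin tumor 3 to 53.5% in vehicle tumor 3, and the intervals of these 2 libraries do not overlap. Alpha genes share 72.3% (Hba-a1) and 89.3% (Hba-a2) of their 50-base words with the other copy, and beta genes 53.2% (Hbb-bs) and 58.3% (Hbb-bt), so the split within a pair is uncertain.

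**Figure D4:**
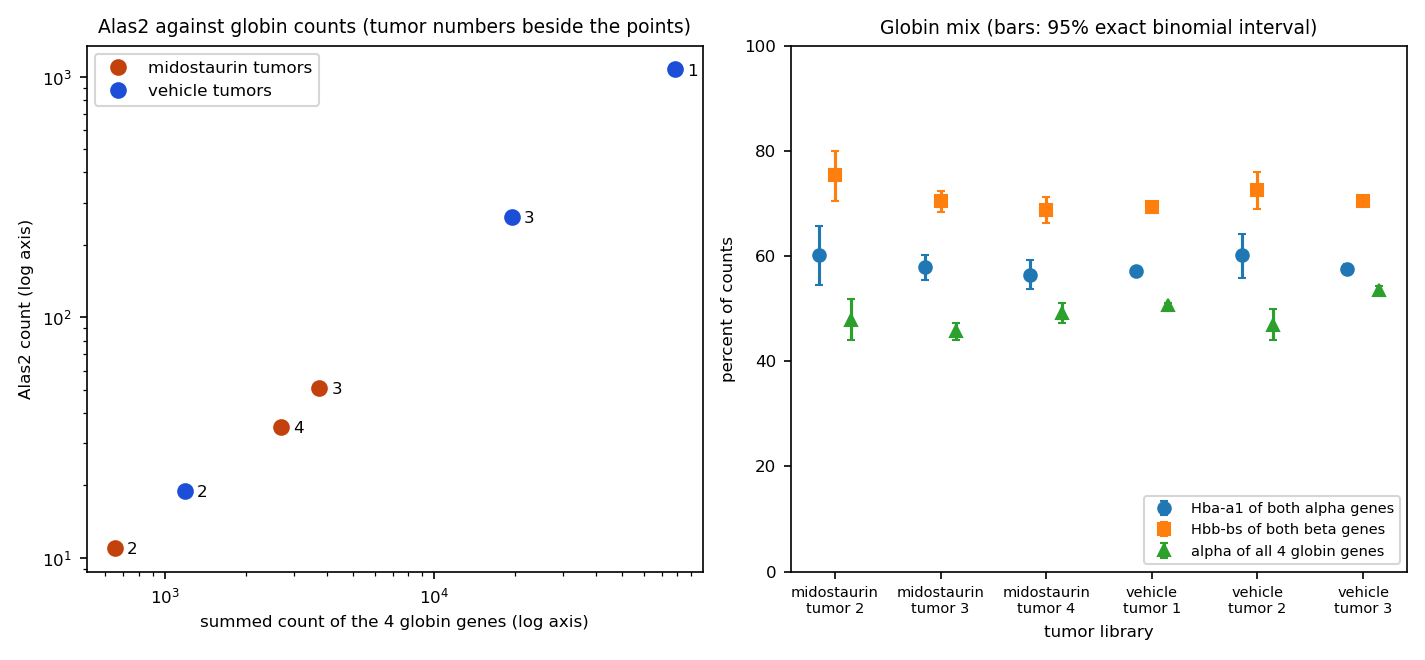
Left, Alas2 count against the summed count of the 4 globin genes in each tumor (both axes log), with tumor numbers beside the points. Right, percent of alpha globin counts held by Hba-a1, of beta globin counts held by Hbb-bs, and of all globin counts held by the alpha genes, with 95% exact binomial intervals. The points on the left run from 11 Alas2 counts in midostaurin tumor 2 to 1073 in vehicle tumor 1, and the shares on the right stay between 45.7 and 75.4%.

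Sequences upstream of the leading erythroid genes are shown because these genes lie apart, on chromosomes 7, 11 and X, and gave the same order of tumors. Promoter windows, 250 bases before to 50 after the start, came from RefSeq (GRCm38.p6), where 29 of the 37 members had one. Capitals mark a match to the GATA motif (the word AGATAA, the word AGATAG, the word TGATAA and the word TGATAG) or to CCACACCC, a motif bound by erythroid Kruppel-like factors, each searched on both strands. The windows are chr11:32283422-32283721 on the plus strand for Hba-a1, chr7:103827879-103828178 on the minus strand for Hbb-bs, chr7:103813874-103814173 on the minus strand for Hbb-bt and chrX:150547167-150547466 on the plus strand for Alas2.
Hba-a1: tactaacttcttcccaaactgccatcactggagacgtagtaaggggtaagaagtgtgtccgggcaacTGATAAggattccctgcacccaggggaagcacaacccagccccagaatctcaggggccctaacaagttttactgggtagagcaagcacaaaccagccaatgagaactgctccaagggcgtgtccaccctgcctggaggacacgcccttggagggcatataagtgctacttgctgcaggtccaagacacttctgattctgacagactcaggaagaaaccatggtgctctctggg
Hbb-bs: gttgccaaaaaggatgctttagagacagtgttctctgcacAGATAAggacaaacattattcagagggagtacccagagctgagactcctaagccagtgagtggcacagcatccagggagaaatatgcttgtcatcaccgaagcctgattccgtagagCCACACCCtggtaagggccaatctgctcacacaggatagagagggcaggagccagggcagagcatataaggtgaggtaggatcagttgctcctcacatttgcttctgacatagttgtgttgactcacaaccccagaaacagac
Hbb-bt: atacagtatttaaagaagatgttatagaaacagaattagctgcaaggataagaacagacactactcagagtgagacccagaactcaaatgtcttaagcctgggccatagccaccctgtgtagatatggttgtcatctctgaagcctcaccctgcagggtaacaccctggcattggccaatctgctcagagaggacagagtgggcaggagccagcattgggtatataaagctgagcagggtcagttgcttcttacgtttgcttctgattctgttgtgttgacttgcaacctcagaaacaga
Alas2: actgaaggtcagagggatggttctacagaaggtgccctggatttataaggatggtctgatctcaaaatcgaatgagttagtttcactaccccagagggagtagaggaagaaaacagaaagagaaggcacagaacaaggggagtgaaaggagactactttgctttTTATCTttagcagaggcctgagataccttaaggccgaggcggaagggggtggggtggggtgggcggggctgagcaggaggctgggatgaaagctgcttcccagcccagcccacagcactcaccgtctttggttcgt

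The window of Hba-a2 holds the same bases as that of Hba-a1 over a run of 297 and is not shown, while the longest run shared by Hbb-bs and Hbb-bt is 14 bases. A GATA match begins 183 bases before the start in Hba-a1, 210 in Hbb-bs and 86 in Alas2, and the letters of this motif are not in the window of Hbb-bt. CCACACCC begins 93 bases before the start in Hbb-bs. Among genes with a window, 6 of 7 erythroid, 6 of 10 keratinocyte and 4 of 12 muscle members hold a GATA match, beside 8930 of the 27025 genes of the table. CCACACCC is in 1 of the 7 erythroid windows and in 4.09% of all genes. A match is a description of the letters and not a site of binding.

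Other red cell genes were mixed, and several also work outside blood. Slc25a37, Fech and Bpgm, the most abundant of 24, serve iron, heme and phosphoglycerate metabolism and were present in every library. Slc25a37 had 6002 to 13955 counts in tumors and 7519 to 14769 in cells. Of the 21 with a count in a tumor, 11 were highest in vehicle tumor 1. Chosen after its values were seen, Trim10 had 0, 0 and 0 counts in the midostaurin tumors, against 21, 0 and 2 in the vehicle tumors. Also chosen after their values were seen, the erythroid master genes Gata1 and Klf1 had 0 to 6 and 0 to 14 counts in tumors. Cells had 0 counts of Gata1 and 5 to 24 of Klf1, so Klf1 in tumors did not exceed its range in cells. The progenitor carbonic anhydrase Car1, chosen in the same way, had 0 in all. The embryonic globin Hbb-y, chosen likewise, had 57, 3 and 24 counts in the midostaurin tumors, against 6, 0 and 6 in the vehicle tumors, an order unlike that of the adult globins. The platelet gene Pf4 had 734, 581 and 591 counts in the midostaurin tumors, against 1803, 289 and 571 in the vehicle tumors. Of the 10 platelet genes 5 were highest in vehicle tumor 1, whereas Itga2b, the next in abundance, was lowest there, at 4.23 CPM.

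Against cultured cells, which give the level without host tissue, tumors were tested over all 12 libraries. Of 16965 genes tested, 31.5% were higher and 26.6% lower in tumors. Among the 37 members 21 were tested, 13 were higher and 0 lower, made up of 2 of 5 keratinocyte, 6 of 11 muscle and 5 of 5 erythroid members. Members at or near 0 in cells passed the low-count filter only through tumors, so these counts describe and do not support. All 6 tumors were above all 6 cell libraries for 8 members: Lgals7, Ckm, Tnni2, the 4 globins and Alas2. The share of all genes with this order was not counted, so the number is only a description.

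The 4 globins and Alas2 were above every cell library in every tumor, while Slc4a1, Rhag and Epb42 were at 0 in at least 4 of the 6 tumors. Hbb-bs averaged 151 ± 262 CPM in tumors (SD, n = 6) and had 0 counts in cells, which makes tumors at least 11220-fold higher over a floor of 3 counts over the cell group. For Hbb-bt the bound is at least 4906-fold and for Alas2 at least 450.4-fold. Without vehicle tumor 1, added after seeing the data, the bounds are at least 3415-fold for Hbb-bs, 1431-fold for Hbb-bt and 136-fold for Alas2. Hba-a1 was 9580 times its level in cells (95% counting interval 3278 to 46460) and Hba-a2 7137 times (2442 to 34610), each resting on 3 counts in 1 cell library, and 2947 and 2161 times without vehicle tumor 1. The edgeR adjusted p was 0.000259 for Hba-a1, 0.000349 for Hba-a2, 0.00112 for Hbb-bs, 0.00195 for Hbb-bt and 0.00318 for Alas2. These genes passed the low-count filter only through tumors, so their p-values describe and do not support.

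Among muscle and keratinocyte members, the calls of Tnni2, Lgals7 and Ckm held with any 1 library left out. DESeq2 gave Ckm no adjusted p. Tnni2 averaged 3.38 ± 1.77 CPM in tumors and 0.0317 ± 0.037 CPM in cells (SD, n = 6 each), a log2 difference of 7.83 ± 0.64 (edgeR adjusted p = 1.52e-05). Acta1 was higher in tumors by 5.15 ± 1.52 (edgeR adjusted p = 0.0134) and Myl1 by 5.79 ± 1.70 (adjusted p = 0.0132) on the log2 scale. Ckm, Tnnt3 and Myh4 had 0 counts in cells, so that tumors were at least 99.5-fold, 135-fold and 67.7-fold higher (edgeR adjusted p = 0.0119, 0.0272 and 0.0471). Without the tumor where each was highest these bounds are at least 65.6-fold, 77.6-fold and 15.7-fold. Ckm, Tnnt3, Myh4, Myl1 and Tnni2, at or near 0 in cells, passed the low-count filter only through tumors. Their p-values and calls, also with libraries left out, describe and do not support. Without midostaurin tumor 3, Ckm and Tnni2 were the muscle members still called, and without vehicle tumor 1 Acta1, Ckm, Myl1 and Tnni2 were. Between vehicle tumors and DMSO cells alone, Tnni2 was the only muscle member called. Without vehicle tumor 3, or any 1 cell library, the Myh4 call was lost too (edgeR adjusted p from 0.0581 to 0.0675). Sfn lost its call without DMSO cells 3 (adjusted p = 0.0511). Sfn was higher in tumors by 1.81 ± 0.61 on the log2 scale (edgeR adjusted p = 0.0247). Without vehicle tumors 1 and 2 and midostaurin tumor 3, a setting chosen after seeing the data in which 39.2% of genes were called, the members higher in tumors were Lgals7, Sfn, Ckm, Tnni2, the 4 globins and Alas2, and Mylpf and Sbsn were lower.

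Midostaurin against vehicle tumors gave no call among the members. Of 16094 genes tested, 7 passed an edgeR adjusted p of 0.05, which is 0.0435%, and 3205 had an unadjusted p below 0.05. Of the 19 members tested, 0 passed, 9 had an unadjusted p below 0.05 (3 keratinocyte, 1 muscle and 5 erythroid), and DESeq2 called 0 members (3 had no adjusted p) while calling 1447 genes. The remaining 18 members, among them Krt14, Krt5, Dsp and Myh1, did not pass the low-count filter. With no filter their log2 fold changes were -10.75 ± 3.73 for Krt14 (SE, edgeR adjusted p = 0.301), -13.97 ± 5.54 for Krt5 (adjusted p = 0.406), -7.22 ± 2.69 for Dsp (adjusted p = 0.333) and 1.52 ± 2.39 for Myh1 (adjusted p = 0.80). The value for Krt5, at 0 counts in all midostaurin tumors, depends on the prior count of the fit. Median log2 fold changes were -2.82 over 4 keratinocyte, -0.31 over 10 muscle and -3.70 over 5 erythroid members, beside -0.01 over all genes tested.

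These medians followed the carriers. Without vehicle tumor 2 the keratinocyte median was -0.25. Without vehicle tumor 1 the muscle median was 1.58 and the erythroid median -1.92. Without midostaurin tumor 3 the muscle median was -3.73 and the erythroid median -4.41. Without midostaurin tumor 2 or 4 the muscle median was 0.21 or 0.27, so its sign changed with the tumors kept, while the erythroid median was negative with any 1 tumor left out.

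Single genes give the same picture with their errors. The log2 fold change was -3.56 ± 1.34 for Hbb-bs (edgeR adjusted p = 0.211), -3.81 ± 1.36 for Hba-a1 (adjusted p = 0.193), -3.83 ± 1.39 for Hba-a2 (adjusted p = 0.198) and -3.62 ± 1.39 for Hbb-bt (adjusted p = 0.217). In levels, Hbb-bs averaged 23.7 ± 19.2 CPM in midostaurin tumors and 278 ± 351 CPM in vehicle tumors (SD, n = 3 each). Vehicle tumor 2, at 12.2 CPM, lay within the range of the midostaurin tumors, 6.49 to 44.4 CPM. Acta1 was at 0.78 ± 1.90 (edgeR adjusted p = 0.855) and Tnni2 at -0.40 ± 0.56 (adjusted p = 0.733) on the log2 scale. Without midostaurin tumor 3 the value of Acta1 was -5.53, and without vehicle tumor 1 it was 3.08. Krt5 had 0 counts in all midostaurin tumors and was at least 2016-fold lower than the vehicle mean over a floor of 3 counts over the group, a bound that rests on vehicle tumor 2.

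In cultured cells midostaurin gave no call among the members. Of 14538 genes tested, 0.0% passed in edgeR (0 genes), 75 had an unadjusted p below 0.05, and DESeq2 called 2. The 7 members tested (4 keratinocyte and 3 muscle) had log2 fold changes of -0.54 to 0.38 and adjusted p of 0.9999. Same-numbered cell libraries deviated together, and with the replicate number as a block 8 genes passed, none of them a member. Lgals7 had 18.6, 25.3 and 21.8 CPM in midostaurin cells, against 18.4, 24.2 and 20.9 CPM in DMSO cells, a log2 fold change of 0.05 ± 0.16 (SE, edgeR adjusted p = 0.9999).

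Markers of other cell types also differed between the tumors. In midostaurin tumor 3, the neutrophil list summed to 1204 CPM, against 59.9 and 72.0 CPM in midostaurin tumors 2 and 4 and 27.2 to 71.7 CPM in vehicle tumors, with 9 of 10 genes highest there. Lcn2, S100a9 and Csf3r, its most abundant genes, had 15442, 11893 and 3225 counts in that tumor, and Lcn2 also had 89 to 6206 in cells. Vehicle tumor 1 had the highest fibroblast and endothelium sum (4578 CPM, against 1625 to 2745 CPM in midostaurin tumors and 1795 to 1973 CPM in the other vehicle tumors), which was mostly Col1a2, Col3a1 and Col1a1, at 2110.0, 1220.0 and 1004 CPM there. Col1a2 also averaged 968 CPM in cells, and the fibroblast genes Dcn, Lum and Pdgfra, chosen after their values were seen, were highest in midostaurin tumor 3. The macrophage list summed to 357, 834 and 722 CPM in midostaurin tumors, against 1353, 941 and 1231 CPM in vehicle tumors. The adipocyte list summed to 15.4, 58.6 and 36.1 CPM in midostaurin tumors, against 67.6, 28.9 and 37.3 CPM in vehicle tumors. Its genes Car3 and Fabp4 were high in both muscle carriers, with Car3, also a slow muscle gene, at 95 counts in midostaurin tumor 3, against 92 in vehicle tumor 1 and 0 to 4 in the other tumors. Fabp4 also averaged 8.66 CPM in cells. Lipe, the next in abundance to Fabp4, differed little, from 8.39 to 12.0 CPM in tumors, with 9.63 CPM in vehicle tumor 1. Chosen after their values were seen, the adipocyte genes Adipoq (12 counts) and Cfd (75 counts) peaked in vehicle tumor 1. The melanocyte genes Dct and Tyrp1 (13 counts each), chosen likewise, peaked in vehicle tumor 2, where Epcam had 91 counts. The melanocyte genes Tyr (2 counts) and Pmel (30 counts) were also highest in vehicle tumor 2, while Mlana had 0 counts there. Tyrp1 also had 8 counts in midostaurin cells 3, and Pmel had 5 to 20 in cells. The part of these cell types in the member levels was not tested.

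The same test was read for the further lists. Between midostaurin and vehicle tumors 0 genes of the 14 lists passed in edgeR. Against cells, 8 of 13 further epidermal genes tested were higher and 0 lower, 3 of 15 further sarcomere genes were higher and 1 lower, and 5 of 11 further red cell genes were higher and 3 lower, beside 31.5% higher and 26.6% lower over all genes. The macrophage list had 10 of 10 genes higher, the fibroblast and endothelium list 8 of 10 and the neutrophil list 6 of 7, with 0 lower in each. None of the 10 wound keratin and cornified envelope genes passed the low-count filter.

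**Figure D5:**
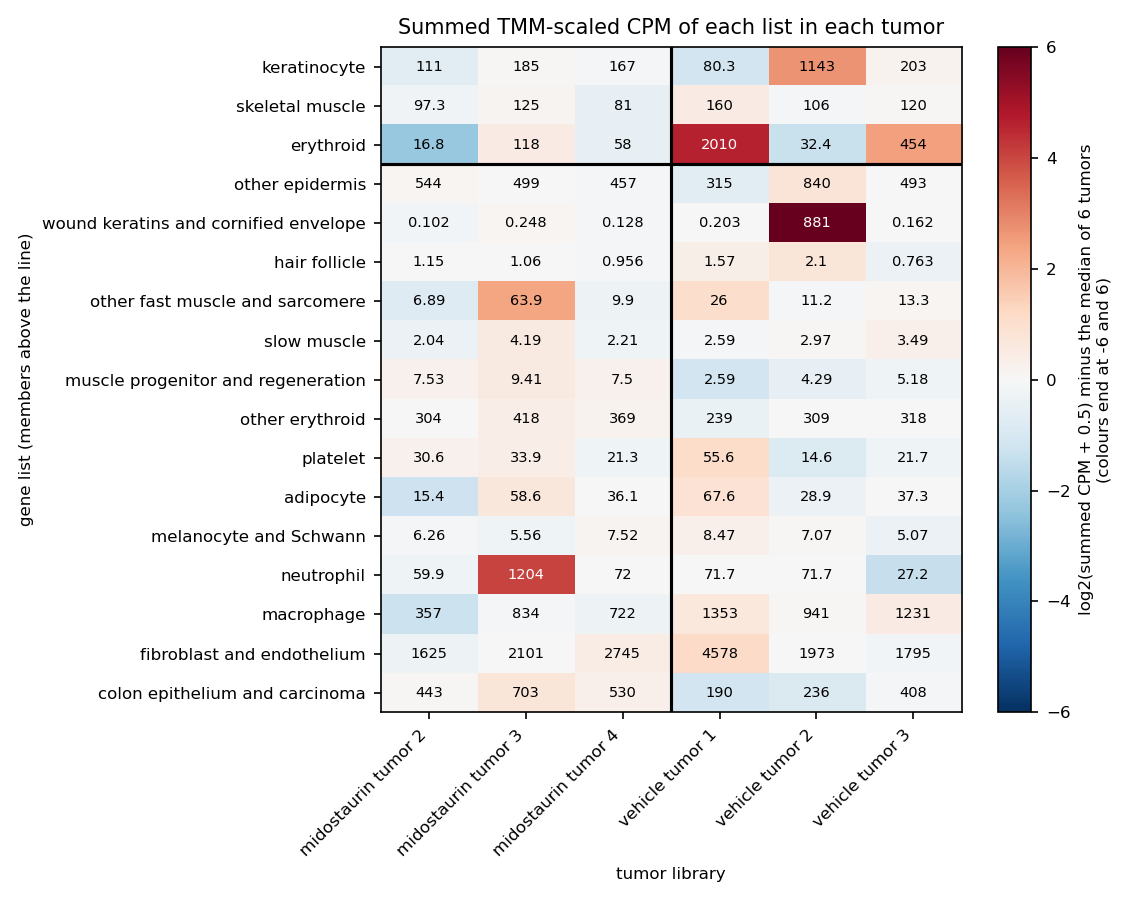
Summed TMM-scaled CPM (printed) of the 3 member lists, above the line, and 14 further lists in each tumor, coloured by log2(sum + 0.5) minus the median of the 6 tumors. The strongest colours are the wound keratin list in vehicle tumor 2 (881 CPM), the erythroid list in vehicle tumor 1 (2010.0 CPM) and the neutrophil list in midostaurin tumor 3 (1204 CPM).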

How the data were processed

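RNA-seq was made from poly(A)-selected, directional libraries, per the labels' protocols. The deposited values are counts per gene, which were whole numbers. The submitters' processing notes name FastQC 0.11.2, Bowtie2 2.3.4, RSEM without a version, and mm10. The annotation and strand setting of the counting are not given in the sources used here, and 10 of the 37 genes overlap an antisense exon. Positions and lengths came from GENCODE vM21 and promoter windows from RefSeq (GRCm38.p6).

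From the counts, CPM were computed with TMM factors over all 12 libraries. Tests used edgeR 4.0.16 (quasi-likelihood F-test, filterByExpr, TMM within the libraries of each fit, Benjamini-Hochberg, threshold 0.05) in R 4.3.3, with DESeq2 1.42.0 as an alternative. The scripts were tested on simulated data. Logs used a pseudocount of 0.5, and bounds a floor of 3 counts. All 37 members were named, with fold changes for those past a threshold and for the 4 of each tissue with the highest mean CPM in tumors. Of each further list, up to 3 genes with the highest mean CPM in tumors could be named. Others are said to be chosen after their values were seen. The members and lists were chosen with earlier results of these data known. Intervals cover counting error only.

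Replicate numbers were checked for pairing. Same-numbered cell libraries deviated together (r = 0.917, 0.745 and 0.744), and for each cell library the same number gave the highest r. Cell libraries 2 and 3 of unlike number also deviated together (r = 0.55 and 0.58). Those numbered 1 deviated against 2 and 3 (r = -0.787 to -0.763). Alternatives were other scaling, no filter, DESeq2, each library left out, the replicate number as a block, and other sums.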

Additional observations from a re-analysis of the deposited data

How the results depend on the processing

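With midostaurin against vehicle tumors, 7 genes passed in edgeR. The count was 0 without the low-count filter, 1447 in DESeq2 and 0 to 1 with 1 library left out. With the replicate block it was 0, but same-numbered tumors did not deviate together (r = 0.151 and -0.207). For cells, edgeR called 0 genes, DESeq2 2 and the replicate block 8, none a member. The summed keratinocyte level, midostaurin over vehicle tumors, was -1.62 on the log2 scale, -5.82 without Lgals7, -8.68 without members at 1 CPM or more in cells, and -2.13 to 0.13 with 1 tumor left out, turning positive without vehicle tumor 2. The muscle level was -0.35, and 0.30 without Eno3 or 0.31 without members at 1 CPM or more in cells. With 1 tumor left out, Lgals7 between the tumor groups lay between -0.36 and 0.20 (0.15 without midostaurin tumor 2 and 0.15 without vehicle tumor 2) and Acta1 between -5.53 and 3.08. The cause of these shifts was not tested. With 3 libraries a group and levels set by 1 or 2 tumors, differences between treatments are poorly resolved.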

Other observations

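The tumors differed in how many genes stood at least 10-fold above every other tumor. Of 27360 genes with a count in a tumor there were 4, 41 and 0 in midostaurin tumors 2, 3 and 4, against 6, 186 and 3 in vehicle tumors 1, 2 and 3. In midostaurin tumor 3, Cxcl1 (27480 counts) and Il1b (12973 counts), a chemokine and a cytokine of inflammation, were among them. The embryonic globin Hbb-bh1 had 76, 10 and 40 counts in midostaurin tumors 2, 3 and 4, against 15, 28 and 20 in vehicle tumors 1, 2 and 3, an order unlike that of the adult globins. Further desmosomal genes marked vehicle tumor 2. Perp had 0, 9 and 7 counts in the midostaurin tumors, against 0, 2973 and 0 in the vehicle tumors, and Pkp1 had 11, 4 and 8 against 0, 1589 and 0. These genes were chosen after their values were seen.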
